A study of Arabidopsis thaliana with 16 samples.

Results

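Glutamate to arginine pathway genes were followed here in leaves and roots of Arabidopsis thaliana plants with a T-DNA insertion in GLU1, the gene of the leaf form of ferredoxin-dependent glutamate synthase (Fd-GOGAT1). The set holds 5 genes out of 22266 probe sets tested, namely NAGS2 (AT4G37670), CARA (AT3G27740), CARB (AT1G29900), OTC (AT1G75330) and AT4G24830, the gene of argininosuccinate synthase. All 5 were measured, each by 1 probe set. OTC and AT4G24830 were named by the platform annotation. NAGS2, CARA and CARB, which the annotation given here left without a name, were found as the only probe sets whose 8 leaf values matched those given for these genes in a list of genes induced in glu1-2 leaves. A higher level in glu1-2 leaves was therefore a condition for naming these 3 genes, and their leaf difference is given below as a description without a test. OTC and AT4G24830 had also been singled out as affected on the same arrays, so that their leaf tests are no independent evidence. Root arrays played no part in finding any of the 5.

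Total RNA was hybridised to Affymetrix ATH1 arrays, which measure each transcript by a set of short probes. Rosette leaves and roots were taken separately from plantlets 18 days after germination, before bolting, of the wild type Col-0 and of the mutant glu1-2, with 4 biological replicates for each organ and genotype and 16 arrays in all. glu1-2 is a homozygous T-DNA insertion in the Col-0 background, and only this line was compared. All plants grew in vitro on the same solid Murashige and Skoog medium, which supplied sucrose and ammonium nitrate, under long days. Values are linear intensities after RMA, the usual background correction, normalization and summary for this array type, and differences are in log2 units. Intensities of different genes come from different probes and are not compared with each other.

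Arginine is made from glutamate in the chloroplast. N-acetylglutamate synthase starts the route by acetylating glutamate, and a cycle of acetylated intermediates leads to ornithine. Carbamoyl phosphate synthetase, built of a small subunit that releases ammonia from glutamine and a large subunit that makes carbamoyl phosphate, feeds both arginine and pyrimidine synthesis. Ornithine carbamoyltransferase joins carbamoyl phosphate to ornithine to give citrulline, argininosuccinate synthase adds aspartate, and argininosuccinate lyase releases arginine, a nitrogen-rich amino acid that plants also use as a nitrogen store.

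The targeted transcript was far lower in mutant leaves. The Fd-GOGAT1 probe set, located through values stated for it and therefore not an independent check, read 2472, 1245, 1948 and 1924 in wild type leaves and 29 to 39 in glu1-2 leaves. In roots it read 31 to 36 in the wild type and 20 to 30 in glu1-2, without overlap and near the low end of the scale. Median intensities of the arrays ranged from 97 to 103 for leaves and from 106 to 110 for roots. Of the marker genes listed for each organ, 1 of 8 for leaves and 2 of 6 for roots could be named. The leaf marker RCA, the gene of Rubisco activase, read 9008 to 12685 in leaves and 877 to 1539 in roots. The root hair expansin genes EXPA7 and EXPA18 read 24 to 47 in leaves and 174 to 387 in roots. In whole organs, a change in the share of cells that express a gene and a change in its RNA per cell cannot be told apart.

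Each of the 5 genes was higher in glu1-2 leaves than in wild type leaves, by 1.35- to 1.69-fold, and in no case did the 4 mutant arrays overlap the 4 wild type arrays. In roots none of the 5 passed the test. The same genes differed between organs in the wild type in no common direction, with NAGS2 higher in leaves and CARB and AT4G24830 higher in roots.

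**Figure D1:**
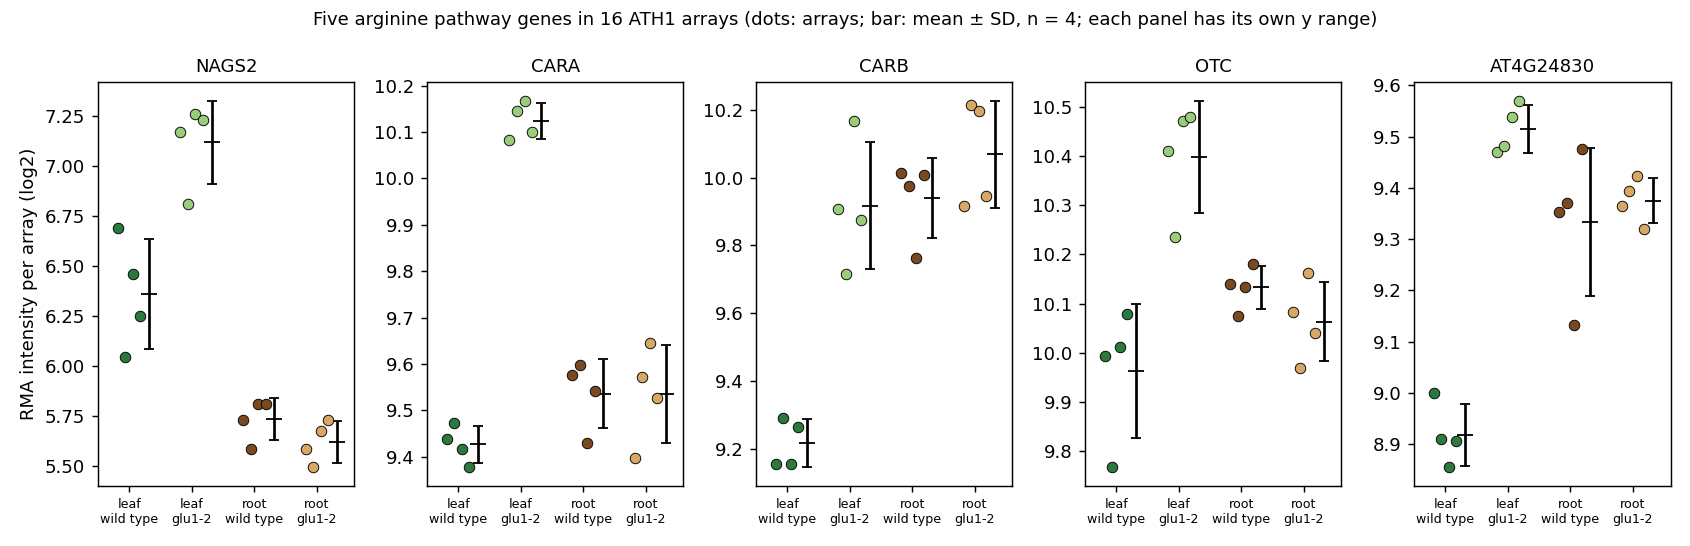
Log2 RMA intensity of the 5 genes on each of the 16 arrays. Dots are single arrays, bars are the mean ± SD of 4 arrays, and each panel has its own y range, so heights compare groups within a gene and not genes with each other. In every panel the leaf glu1-2 dots lie above all leaf wild type dots, while the dots of the 2 root groups overlap.

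NAGS2 encodes N-acetylglutamate synthase, the entry step of the pathway. Its intensity was 103, 66, 88 and 76 in replicates 1 to 4 of wild type leaves and 144, 112, 153 and 150 in those of glu1-2 leaves. The lowest mutant array thus stood just above the highest wild type array, 112 against 103. The mean log2 level was 6.36 ± 0.28 (SD, n = 4) and 7.12 ± 0.21 (SD, n = 4), a difference of 0.76 (95% interval 0.45 to 1.07) or 1.69-fold. In roots NAGS2 read 53, 48, 56 and 56 in the wild type and 48, 45, 51 and 53 in glu1-2. The root groups overlapped, and the log2 difference of -0.11 had an interval from -0.28 to 0.05. NAGS2 was the weakest signal of the set, with 35.9% of all intensities on the arrays below its lowest root value of 45. How much of the root signal is background was not tested.

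CARA encodes the small subunit of carbamoyl phosphate synthetase, the glutamine-using part of the enzyme. It was the gene with the tightest leaf replicates, at 694, 711, 684 and 665 in wild type leaves and 1085, 1132, 1150 and 1097 in glu1-2 leaves. The smallest mutant value exceeded the largest wild type value by more than the whole range within either group. The means were 9.43 ± 0.04 and 10.12 ± 0.04 (SD, n = 4 each), and the difference was 0.70 (95% interval 0.54 to 0.85) or 1.62-fold. Root intensities were 763, 775, 690 and 745 in the wild type and 674, 761, 801 and 738 in glu1-2. The mutant root arrays spanned all those of the wild type, and the log2 difference of -0.00091 lay in an interval from -0.16 to 0.16.

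CARB encodes the large subunit of the same enzyme. Wild type leaves read 570, 626, 570 and 615 and glu1-2 leaves 960, 841, 1151 and 940. The mutant leaf arrays were more spread than those of CARA but remained clear of the wild type. The log2 difference was 0.70 (95% interval 0.48 to 0.92) or 1.63-fold, from 9.22 ± 0.07 to 9.92 ± 0.19 (SD, n = 4 each). In roots CARB read 1034, 1007, 869 and 1029 in the wild type and 967, 1188, 1174 and 987 in glu1-2. Replicates 2 and 3 of the mutant roots stood above the wild type and replicates 1 and 4 within it, and the log2 difference of 0.13 had an interval from -0.07 to 0.33.

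OTC encodes ornithine carbamoyltransferase, which spends carbamoyl phosphate on citrulline. Its intensity was 1019, 871, 1033 and 1081 in wild type leaves and 1361, 1205, 1420 and 1428 in glu1-2 leaves. Replicate 2 was the lowest array in both leaf groups. OTC had the smallest leaf difference of the 5 genes, 0.44 (SE 0.0935, 1.35-fold, q = 0.00151 by limma with Storey's q-value, threshold 0.01). Root intensities were 1129, 1079, 1124 and 1161 in the wild type and 1084, 1002, 1146 and 1053 in glu1-2. These ranges overlapped, with a log2 difference of -0.07 and an interval from -0.21 to 0.07.

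AT4G24830 encodes argininosuccinate synthase, the step that brings in the nitrogen of aspartate. Wild type leaves read 512, 481, 463 and 480 and glu1-2 leaves 709, 715, 743 and 760. The gap between the groups, 512 to 709, was wider than the range of either. The log2 difference was 0.60 (SE 0.0739, 1.51-fold, limma q = 2.95e-05). In roots the wild type read 654, 662, 561 and 712 and glu1-2 659, 673, 686 and 639. All 4 mutant root arrays lay inside the wild type range, and the log2 difference of 0.04 had an interval from -0.13 to 0.21.

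The call rate of all probe sets gives the scale for these counts. In leaves 27.9% of probe sets passed q under 0.01 in either direction and 14.2% passed as higher, and on 16.3% all mutant arrays lay above all wild type arrays. The median log2 difference was 0.70 over the 5 genes, from 0.44 to 0.76, and -0.02 over all probe sets. All 5 being past the threshold follows in part from how they were chosen and is not read against these rates. In roots 2.84% of probe sets passed, a low rate against which 0 of 5 says little on its own, and on 11.3% the root groups did not overlap, against 0 of 5. None of the 5 reached an unadjusted p under 0.05 in roots either, nor did any pass with intensity-trend and robust moderation in limma, and the q-values ran from 0.381 for NAGS2 to 0.774 for CARA. For OTC and AT4G24830, whose names did not depend on leaf values, the root interval ended below the start of the leaf interval of the same gene. Both had been singled out as affected in leaves, so this is a description.

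The only leaf marker named, 1 of 8 listed, moved with genotype in the root samples. RCA read 954, 1091, 877 and 900 in wild type roots and 1451, 1481, 1539 and 1445 in glu1-2 roots, a log2 difference of 0.64 (limma q = 0.000407). It was thus higher in mutant roots while none of the 5 pathway genes passed there, and its part in the root values was not tested. The leaf difference of RCA was -0.20 (95% interval -0.40 to 0.00093) and did not pass. In leaves the root markers EXPA7 and EXPA18 read 24 to 47 over both genotypes, with log2 differences of 0.06 and -0.30. In roots they were higher in glu1-2 by 0.27 (95% interval -0.05 to 0.59) and 0.33 (95% interval 0.11 to 0.54). Neither passed in either organ.

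**Figure D2:**
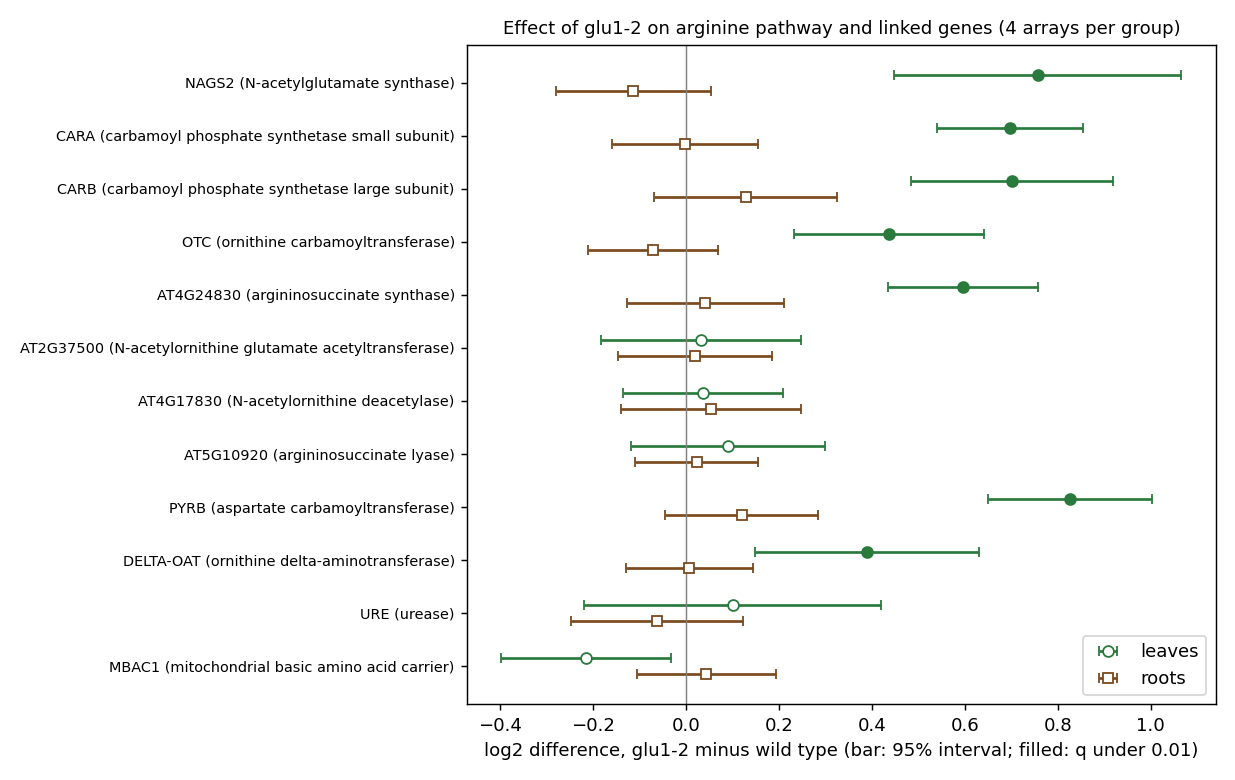
Log2 difference between glu1-2 and the wild type in leaves (circles) and roots (squares), with bars for the 95% interval from 4 arrays per group and filled symbols for q under 0.01. The top 5 genes are those described above, and the leaf symbols of NAGS2, CARA and CARB show what their naming required. All 12 root intervals include 0, whereas the leaf intervals of the top 5 genes, of PYRB and of DELTA-OAT lie above it and that of MBAC1, a mitochondrial basic amino acid carrier, lies below it without passing.

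The glu1-2 effect was larger in leaves than in roots for each of the 5 genes when the difference was taken in a fit of all 16 arrays, where 25.8% of probe sets passed. OTC rose by 0.51 more in leaves (SE 0.113, limma q = 0.000756) and AT4G24830 by 0.55 more (SE 0.105, limma q = 0.000166). Both had been singled out as affected in leaves on the same arrays, so these tests are no independent evidence either. For NAGS2, CARA and CARB the same difference was 0.87, 0.70 and 0.57, which contains the leaf rise used for naming. The genes kept the order of their leaf differences except that CARA and CARB changed places.

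The difference between wild type organs had not been used to choose the genes. The wild type leaf arrays were, however, part of the leaf difference for which all 5 genes were picked, and they served to find NAGS2, CARA and CARB. Picking genes as higher in glu1-2 leaves can favour low wild type leaf values. The organ tests below are therefore not independent of the choice. Leaves and roots differed for 75.2% of all probe sets, with 36.9% higher in leaves and 38.2% lower, so that a passing gene is the rule here. Of the 5 genes 1 was higher, 2 were lower and 2 did not pass, and for 3 of 5 the organs did not overlap, against 64.6% of all probe sets. NAGS2 was higher in leaves by 0.63 (SE 0.123, 1.55-fold, limma q = 7.99e-05), all 4 leaf arrays lying above the root arrays at 66 to 103 against 48 to 56. CARB was lower in leaves, with a log2 difference of -0.72 (SE 0.0814, limma q = 5.78e-07), 570 to 626 against 869 to 1034 and thus 1.65-fold higher in roots. AT4G24830 was likewise lower in leaves at -0.41 (SE 0.0853, limma q = 0.000119), 463 to 512 against 561 to 712. For CARA the difference was -0.11 (95% interval -0.27 to 0.05, limma q = 0.0291) and for OTC it was -0.17 (95% interval -0.35 to 0.01, limma q = 0.0124), neither past the threshold. With all arrays set to the same median CARA turned to 0.031 and OTC shrank to -0.030 (limma q = 0.0789), while AT4G24830 still passed at -0.27. OTC passed with 3 other forms of the test and without replicate 4 of the wild type leaves, where it was -0.21 (limma q = 0.00631), but was -0.11 (limma q = 0.0316) without replicate 2. The subunits CARA and CARB, which form a single enzyme, thus stood apart in the wild type, CARB passing as higher in roots and CARA not passing. The difference between the 2 organ contrasts was not tested, as it sets probes of different genes against each other.

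In glu1-2 the organ differences were shifted towards leaves, with 3 of 5 genes higher in leaves and none lower. Of all probe sets 67.4% passed, 33.8% as higher in leaves. This comparison uses the same leaf arrays as the leaf effect and adds no independent evidence of it. NAGS2 was 2.82-fold higher in leaves than in roots and CARA 0.59 higher on the log2 scale. OTC, which did not pass between the wild type organs, was 0.34 higher in mutant leaves (SE 0.0788, limma q = 0.000523). CARB and AT4G24830, lower in leaves of the wild type, did not pass, at -0.15 (95% interval -0.39 to 0.08) and 0.14 (95% interval -0.0024 to 0.28). AT4G24830 passed as higher in leaves with equal array medians, at 0.22 (limma q = 0.00121). Without replicate 3 of the glu1-2 leaves CARB was still lower in leaves, at -0.24 (limma q = 0.00956).

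**Figure D3:**
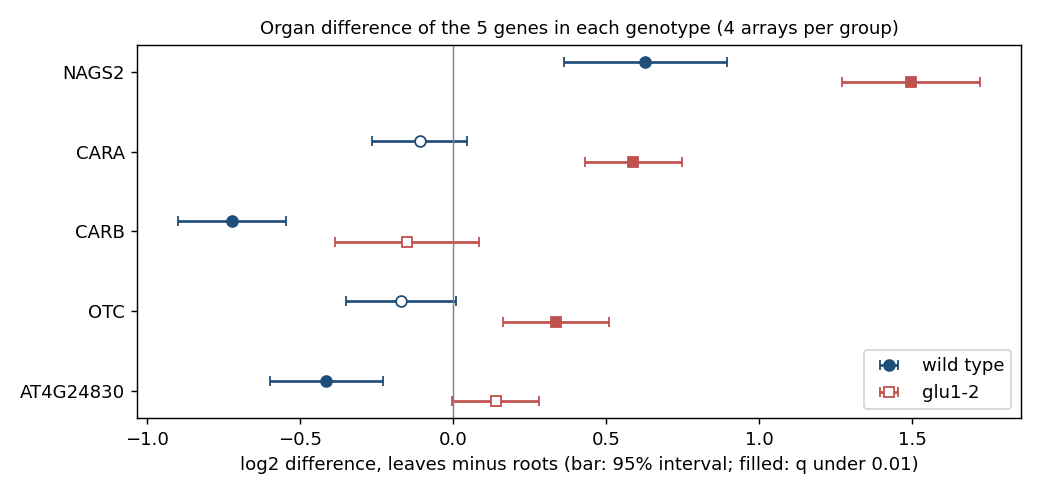
Log2 difference between leaves and roots for the 5 genes in the wild type (circles) and in glu1-2 (squares), with bars for the 95% interval from 4 arrays per organ and filled symbols for q under 0.01. Each gene has its glu1-2 symbol to the right of its wild type symbol, by 0.51 for OTC to 0.87 for NAGS2.

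The order of the 4 groups therefore differed by gene. NAGS2 was highest in glu1-2 leaves, followed by wild type leaves and then both root groups, which overlapped. CARA and OTC had glu1-2 leaves on top and the other 3 groups close together, 665 to 801 for CARA and 871 to 1161 for OTC. CARB was lowest in wild type leaves, while glu1-2 leaves and both root groups overlapped between 841 and 1188. AT4G24830 had wild type leaves at the bottom as well, with glu1-2 leaves at 709 to 760 just touching the highest wild type root array at 712. Single arrays recurred at the edges of these ranges. Replicate 3 of the wild type roots was the lowest of its group for 3 of the 5 genes, CARA, CARB and AT4G24830, and replicate 2 of the glu1-2 leaves for 3, NAGS2, CARB and OTC.

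Of 8 other genes of arginine synthesis, 3 could be measured on a probe set of their own, 1 shares a probe set with another gene, and 4 were not named here. The 3 measured genes stand for steps around those of the 5 genes, and 0 of 3 passed in leaves, against 27.9% of all probe sets, or in roots, against 2.84%, by limma, rates at which 0 of 3 says little, with 0 at an unadjusted p under 0.05 and 0 with trend and robust moderation. AT2G37500, the N-acetylornithine glutamate acetyltransferase that recycles the acetyl group, read 418, 419, 396 and 421 in wild type leaves and 423, 350, 472 and 457 in glu1-2 leaves. Its log2 difference was 0.03 (95% interval -0.18 to 0.25). The mutant arrays lay on both sides of the wild type.

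AT4G17830, the N-acetylornithine deacetylase that can release ornithine, read 522, 545, 498 and 510 in wild type leaves and 528, 488, 567 and 548 in glu1-2 leaves, a difference of 0.04 (95% interval -0.14 to 0.21). AT5G10920, argininosuccinate lyase, read 452, 464, 452 and 464 against 481, 411, 553 and 518, a difference of 0.09 (95% interval -0.12 to 0.30). The lyase acts directly after argininosuccinate synthase, and its interval ended below that of AT4G24830, which began at 0.44. AT4G24830 had been singled out as affected in leaves, however, so a higher interval for it follows in part from the choice. Whether the leaf effects of these genes differ was not tested. In roots the 3 genes differed by 0.02, 0.05 and 0.02, with intervals from -0.15 to 0.25 between them. Between wild type organs 36.9% of all probe sets passed as higher in leaves. AT2G37500 and AT4G17830 did so, by 0.40 (limma q = 0.000133) and 0.29 (limma q = 0.00241), the latter not passing with Benjamini-Hochberg adjustment (0.0153). AT5G10920 did not pass, at 0.14 (limma q = 0.0107), but did with equal array medians (limma q = 0.000263). Of the 5 genes NAGS2 was likewise higher in leaves, while CARB and AT4G24830 were lower.

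Carbamoyl phosphate also enters pyrimidine synthesis, of which 1 of 4 listed genes was measured. PYRB, aspartate carbamoyltransferase, read 354, 383, 352 and 375 in wild type leaves and 653, 594, 647 and 705 in glu1-2 leaves. It rose by 0.83 (SE 0.0806, 1.77-fold, limma q = 4.47e-06), with a gap between the groups wider than the range of either. PYRB thus passed as higher in mutant leaves, as did 14.2% of all probe sets. OTC, the other measured enzyme that consumes carbamoyl phosphate, was also higher, but it had been singled out as affected in leaves. In roots PYRB read 400, 391, 338 and 410 in the wild type and 406, 412, 448 and 404 in glu1-2, a difference of 0.12 (95% interval -0.04 to 0.29), and the leaf effect exceeded the root effect by 0.71 (limma q = 1.99e-05).

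Of 14 listed genes that use arginine, ornithine or polyamines, 3 were measured, and 1 of them rose in leaves, against 14.2% of all probe sets that passed as higher, 0 fell and 2 did not pass. DELTA-OAT, ornithine delta-aminotransferase, which breaks ornithine down in mitochondria, read 214, 215, 180 and 204 in wild type leaves and 274, 227, 320 and 250 in glu1-2 leaves. The difference of 0.39 (SE 0.111, limma q = 0.00796) had no overlap between groups but passed by a small margin. It no longer passed with Benjamini-Hochberg adjustment (0.0164), nor when any array other than replicate 2 of the glu1-2 leaves was left out, where q reached 0.0243. In roots DELTA-OAT differed by 0.0081 (95% interval -0.13 to 0.14).

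Across the 16 arrays, the profiles of the 5 genes were alike to different degrees. Pearson correlations of log2 intensity between pairs ran from -0.23 for NAGS2 and CARB to 0.87 for CARB and AT4G24830, and the subunits CARA and CARB had 0.40. These values describe 4 groups of 4 arrays, with shared arrays and a difference between organs under each of them, and carry no test. Likeness was sought among 7547 other probe sets of 1 named gene with a mean log2 level of at least 5 in every group. Those most like NAGS2 were AT1G55930 (r = 0.976), AT5G24460 (0.970) and AT5G58570 (0.968). AT1G55930 differed by 0.64 in leaves and -0.12 in roots, close to NAGS2 in both organs. As it was picked for likeness on the same arrays, this closeness follows in part from the choice.

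The genes most like CARA were AT1G24095 (r = 0.976), AT1G02750 (0.973) and AT3G45730 (0.971), with leaf differences of 1.74 to 3.44, larger than that of CARA. CARB was most like AT5G27470 (0.983), AT1G08360 (0.964) and AT4G30010 (0.961). AT1G08360, a ribosomal protein gene, differed by 0.62 in leaves, 0.09 in roots and -0.79 between wild type leaves and roots. CARB had 0.70, 0.13 and -0.72, a closeness that again follows in part from the choice. OTC was most like AT5G18250 (0.931), AT2G39020 (0.927) and AT1G16210 (0.922). AT4G24830 was most like AT5G20160 (0.977), AT5G27760 (0.961) and AT5G06110 (0.952), whose leaf differences of 0.96 to 1.29 were larger than its own 0.60.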

How the data were processed

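The authors processed the ATH1 scans by RMA in R with quantile normalization, and the deposited intensity values are linear and rounded to whole numbers, the lowest being 6. They were taken to log2 without further normalization. Of 22279 probe sets 13 controls were left out. The annotation gave 1 gene for 13216 probe sets, several for 491 and none for 8559. Names drew on 1369 genes of the leaf-induced list, fewer than the study counted as increased in leaves. Of these 1369, 1362 matched exactly 1 probe set within 0.51 intensity units on 8 leaf arrays. Where the annotation also named that probe set (732), 725 names were the same. Symbols came from the RefSeq table of genes.

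Each comparison was fitted across all 22266 probe sets with limma 3.58.1 (R 4.3.3) by two-sided moderated tests, with Storey's q-value at 0.01 as in the study's methods, and the organ difference in effect over 16 arrays. With many changed probe sets this q can be smaller than the raw p. Intervals are 95% limits of the fit. The scripts were tested on simulated data, and tables were made in Python 3.11.15. With 4 arrays per group, their number limits the precision.

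Alternatives were Benjamini-Hochberg adjustment, q under 0.05, another round of quantile normalization, equal medians for all arrays, removal of the dimmest 0.25 of probe sets, trend and robust moderation, the replicate number as a block, 1 fit of 16 arrays and leaving out each array. The text names the 5 genes, the measured genes of arginine synthesis and the 3 probe sets of 1 gene most like each of the 5. It also names members of linked lists that the annotation named and that passed in either organ. URE, MBAC1, AT5G38710, P5CR and ERD5 fall outside this rule and were added after their values were seen. The genes and lists were chosen with earlier results of these data known. Genes without a named probe set were not analysed here.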

Additional observations from a re-analysis of the deposited data

Results flagged for a closer look

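In 4 of 60 groups of 4 arrays, 1 array lay apart from the other three by Dixon's criterion, where chance gives about 1 in 20. Among the 5 genes this was CARB in wild type roots, where replicate 3 read 869 and the others 1007 to 1034. Without it, CARB differed by 0.07 between mutant and wild type roots (limma q = 0.596) and by -0.78 between wild type leaves and roots (limma q = 4.36e-07). The other arrays apart were replicate 3 of wild type leaves for AT2G37500 at 396, replicate 4 of wild type leaves for P5CR at 898, and replicate 1 of glu1-2 leaves for AT5G38710 at 57.

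The glu1-2 effect differed between leaves and roots by the contrast over 16 arrays for 8 of the pathway and linked genes, each with the larger effect in leaves. Of all probe sets 25.8% passed this contrast, 2902 as higher and 2852 as lower. The differences were 0.87 for NAGS2, 0.70 for CARA, 0.57 for CARB, 0.51 for OTC, 0.55 for AT4G24830, 0.71 for PYRB, 0.52 for P5CR and 0.68 for ERD5. NAGS2, CARA, CARB, P5CR and ERD5 were named through their higher leaf values, which this contrast contains. OTC and AT4G24830 had been singled out as affected in leaves, so the shared direction follows in part from the choice. Outside these genes the contrast was -0.84 for the leaf marker RCA. RCA passed as higher in mutant roots and differed by -0.20 in leaves without passing. The contrast was -0.63 for the root marker EXPA18, which passed in neither organ alone, and -5.23 for Fd-GOGAT1, located through its own values.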

How the results depend on the processing

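The counts of the 5 genes past the threshold were 5 in leaves, 0 in roots and 5 for the organ difference in effect under every alternative run, left-out arrays included. For NAGS2, CARA and CARB a higher leaf level was a condition of naming. OTC and AT4G24830 had been singled out as affected in leaves on the same arrays. The leaf and organ-difference counts therefore say nothing of stability. Between organs the count was 3 in each genotype, 5 in each at q under 0.05, and 3 to 4 when single arrays were left out. At q under 0.05, 10029 of all 22266 probe sets passed as higher in wild type leaves than roots and 9486 as lower. For glu1-2 these counts were 9504 and 8552. Most probe sets thus passed, so 5 of 5 says little. CARA in the wild type and CARB in glu1-2 passed there with unadjusted limma p of 0.153 and 0.183. Between glu1-2 organs AT4G24830 passed without the dimmest probe sets (q = 0.00834) and with equal array medians (0.22, q = 0.00121). The all-probe-set count in roots, 632, was 1500 at q under 0.05, 986 with trend and robust moderation, 249 with the replicate block and 338 to 479 with 1 array left out. It fell most without root replicate 2 (338), 4 (404) and 3 (410) of glu1-2 and replicate 3 of the wild type (414). The cause was not tested.

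Shifting each array to the same median moved the median of all probe sets between wild type leaves and roots from 0.03 to 0.17 and the calls from 8227 higher and 8506 lower to 11063 and 7381. It ended the DELTA-OAT call in leaves (q = 0.0123) and gave 1 for MBAC1, at -0.27 (q = 0.00905). It turned the sign of values that had not passed, to -0.022 for AT2G37500 and -0.017 for AT4G17830 in leaves, 0.0024 for CARA in roots, -0.046 for AT2G37500 in the organ difference, and 0.031 for CARA and 0.071 for PYRB between wild type organs.

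With 1 array left out, values that had not passed crossed 0 as well. In leaves the ranges were -0.021 to 0.12 for AT2G37500, -0.035 to 0.19 for URE, the urease gene, and -0.13 to 0.016 for AT5G38710. In roots they were -0.038 to 0.045 for CARA, -0.025 to 0.090 for AT4G24830, -0.045 to 0.057 for AT2G37500, -0.029 to 0.12 for AT4G17830, -0.0019 to 0.046 for AT5G10920, -0.020 to 0.033 for DELTA-OAT and -0.030 to 0.096 for AT5G38710. For the organ difference in effect they were -0.041 to 0.10 for AT2G37500 and -0.085 to 0.066 for AT4G17830.

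Replicate numbers recur in every group, but deviations of same-numbered arrays correlated only at -0.04 to 0.13, so the numbers were not taken to pair the samples. With the replicate block the counts of the 5 genes stayed at 5, 0, 5, 3 and 3, and DELTA-OAT in leaves did not pass (q = 0.0197). The weak NAGS2 signal and the 4 arrays per group limit what could be seen in roots.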

Other observations

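Proline is also made from glutamate, and of 3 measured genes of its synthesis and breakdown 1 passed in roots, against 2.84% of all probe sets. ERD5, proline dehydrogenase, which starts proline breakdown, read 65, 62, 64 and 59 in wild type leaves and 173, 142, 175 and 160 in glu1-2 leaves. It read 465, 424, 434 and 471 in wild type roots and 713, 667, 807 and 719 in glu1-2 roots, where it rose by 0.69 (SE 0.0735, limma q = 0.000201). The root groups did not overlap, as on 11.3% of all probe sets and unlike those of any of the 5 arginine genes. ERD5 was named through its leaf values and is singled out here after its values were seen, and the root values were not used for the name.

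P5CR, pyrroline-5-carboxylate reductase, the last step of proline synthesis, read 656 to 898 in wild type leaves and 1052 to 1190 in glu1-2 leaves, a difference of 0.65 that its naming required. In roots it read 1127 to 1342 and 1262 to 1427, a difference of 0.13 (95% interval -0.03 to 0.29). AT5G38710, a further proline dehydrogenase gene and the only 1 of 6 listed proline genes named by the annotation, differed by -0.04 in leaves and 0.02 in roots and passed in neither.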
